A study of Homo sapiens with 2 samples.

Results

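Luteolin is a plant flavone, and 22Rv1 is an established line of human prostate cancer cells. The 9 microRNAs (miRNAs) described here were chosen by name from the 2565 miRNA probes of the array: hsa-miR-8080, studied in connection with luteolin in this cell line, and 8 other miRNAs. All 9 names were found, each on 1 spot. The control culture was untreated, the other received 25 µM luteolin, and RNA of both was taken at 48 h. Each condition was hybridised to 1 single-colour Toray 3D-Gene array with 250 ng of Cy5-labelled total RNA. With 1 array per condition there was no test between the conditions, no replicate check and no p-value. Every difference below describes this pair of arrays.

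A miRNA is a short RNA that guides Argonaute proteins to messenger RNAs, mainly by pairing of its seed, bases 2 to 8 from the 5′ end, and lowers the output of the matched transcript. It is cut from a hairpin precursor, and either arm of the hairpin can yield a mature miRNA. MiRNAs with the same seed can act on overlapping sets of transcripts.

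The mature sequences below, from RefSeq (GRCh38.p14), show which of the 9 share a seed. The capitals mark the seed, and all 9 names matched the reference table.
hsa-miR-8080: gAAGGACAcuggugucaacggcu
hsa-miR-185-5p: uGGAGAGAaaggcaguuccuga
hsa-miR-421: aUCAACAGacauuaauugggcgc
hsa-miR-449a: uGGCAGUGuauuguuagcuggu
hsa-miR-449b-5p: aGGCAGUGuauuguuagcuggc
hsa-miR-361-3p: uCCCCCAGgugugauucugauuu
hsa-miR-135b-5p: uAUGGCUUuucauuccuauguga
hsa-miR-634: aACCAGCAccccaacuuuggac
hsa-miR-488-5p: cCCAGAUAauggcacucucaa

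MiR-449a and miR-449b-5p are the only pair of the 9 with a common seed. They differ at 2 of 22 positions, U1A and U22C from miR-449a to miR-449b-5p, counted from the 5′ end, so a probe for either could bind part of the other. Among the 2253 array miRNAs with a sequence in the table used, 3 outside the 9 carry a seed of the 9; the other array miRNAs were not searched. They are miR-34a-5p with the miR-449 seed, miR-4306 with that of miR-185-5p, and miR-135a-5p with that of miR-135b-5p. Their sequences are printed because their values are set beside those of their seed relatives below.
hsa-miR-34a-5p: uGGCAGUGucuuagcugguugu
hsa-miR-4306: uGGAGAGAaaggcagua
hsa-miR-135a-5p: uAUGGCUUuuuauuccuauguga

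MiR-8080 shared its seed with 0 other array miRNAs that had a reference sequence. It comes from the 5′ arm of an 89-base hairpin at chr2:79866495-79866583 on the minus strand, within the span of CTNNA2, an α-catenin gene. The hairpin is shown with the mature miRNA in capitals.
MIR8080 hairpin: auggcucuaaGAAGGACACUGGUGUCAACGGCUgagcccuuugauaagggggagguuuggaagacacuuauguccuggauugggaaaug

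The other members lie in 7 places of the genome, and RefSeq gives a spanning gene for each. MiR-185-5p (chr22:20033153-20033174, plus strand) lies within TANGO2, and miR-634 (chr17:66787132-66787153, plus strand) within PRKCA, a protein kinase C gene. MiR-449a (chr5:55170586-55170607) and miR-449b-5p (chr5:55170706-55170727) lie side by side within CDC20B on the minus strand. MiR-421 (chrX:74218392-74218414, minus strand) lies within FTX, a non-coding RNA gene of the X-inactivation centre, and miR-361-3p (chrX:85903641-85903663, minus strand) within CHM. MiR-135b-5p (chr1:205448361-205448383, minus strand) lies within LEMD1 and BLACAT1, and miR-488-5p (chr1:177029412-177029432, minus strand) within ASTN1. Exon boundaries and the strand of the spanning genes were not used here. The median GC content of the 9 sequences was 47.8%, against 52.2% over the array miRNAs with a sequence and 61.9% over those listed by the authors on both arrays.

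Signals near background have to be read against spots that should carry none. Each array had 320 blank spots and 32 Negative Control spots of 3 probes. The blank spots, trimmed by 5% at each end, averaged 81.0 units on the control array (SD 1.48) and 66.2 on the luteolin array (SD 0.591), so raw signals are compared within an array only. A miRNA counts as detected above the blank mean plus 2 SD, a rule that gave the same listing as the deposited columns for each of the 2565 probes. Negative Control 1 was well above the blanks. Its 16 spots ran from 83.2 to 93.7 units on the control array (mean 88.2, SD 2.68) and from 66.8 to 69.4 on the luteolin array (mean 68.2, SD 0.778). Of the cell type markers, 4 of 6 epithelial miRNAs exceeded every Negative Control spot without luteolin and 5 of 6 with it. Of 9 markers of other cell types, 1 did so on each array, the erythroid miR-451a. Over all probes the shares were 12.1% without luteolin and 23.1% with it. The epithelial miR-200c-3p and miR-375 were above these spots on both arrays. MiR-200a-3p was above them on the luteolin array alone, listed at 18.9, and miR-429 was detected on neither array.

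On the control array, 4 of the 9 miRNAs were detected, where 31.6% of all miRNA probes were, and 0 of the 9 exceeded every Negative Control spot, as 12.1% of all probes did. On the luteolin array 5 of the 9 were detected, against 38.4% of all probes. Of these, 3 exceeded every Negative Control spot, against 23.1% of all probes: miR-8080, miR-185-5p and miR-361-3p. The same 3 did so after luteolin but not without it, a pattern shared by 11.0% of all probes. With each array's own limit, the reverse pattern occurred for 0 of the 2565 probes. The range of Negative Control 1 was wider on the control array, so the limit there lay higher. On the authors' normalized scale it was 38.7, against 14.9 on the luteolin array. A miRNA with an unchanged level between these limits shows the first pattern, and miR-361-3p was listed at 22.0 without luteolin and 20.0 with it. With 38.7 as the limit on both arrays, the first pattern held for 2.18% of all probes, miR-8080 and miR-185-5p among them. The reverse pattern at 38.7 was not counted, but it was not empty. The marker miR-451a was listed at 39.8 without luteolin and 22.1 with it. The count of 0 thus holds only for the unlike limits, and their part in the asymmetry was not tested further.

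**Figure D1:**
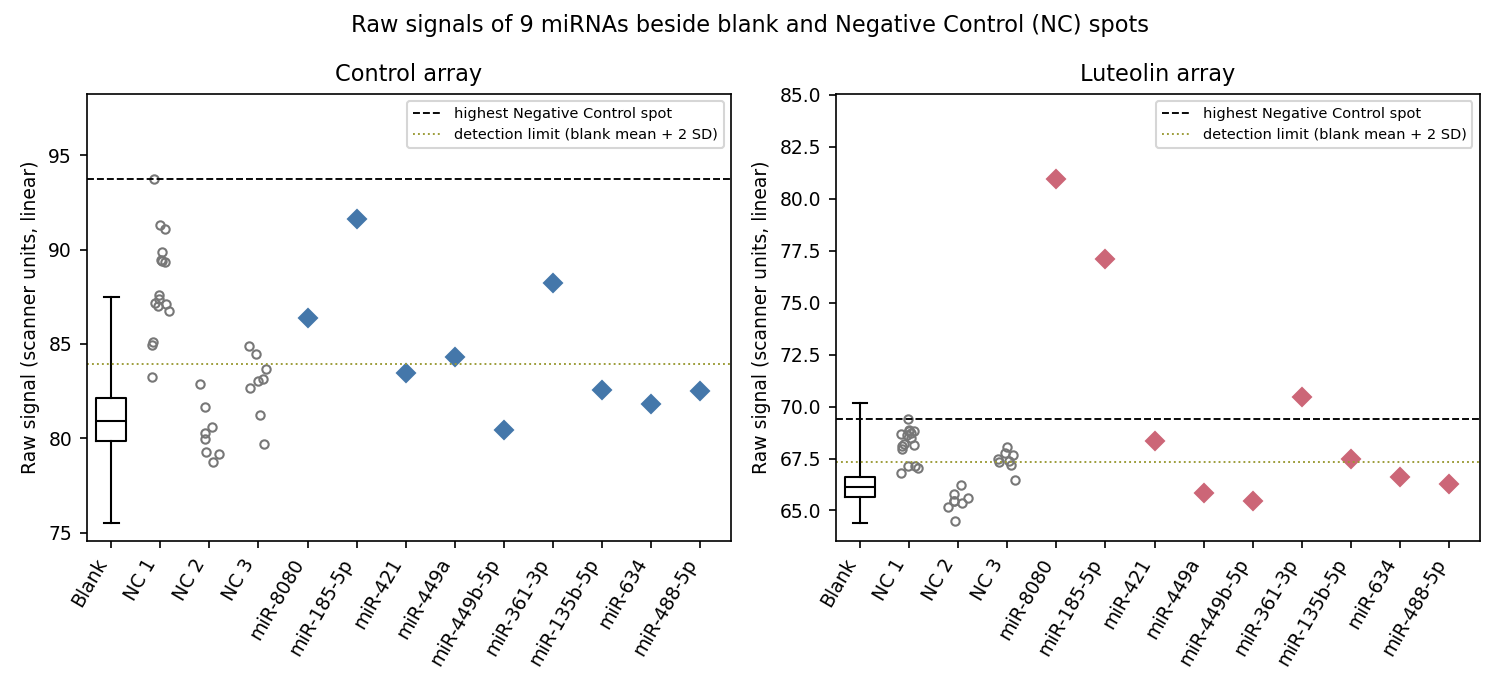
Raw signal in scanner units (vertical axis, linear, not starting at 0) of the 9 miRNAs (filled diamonds, 1 spot each) beside the 320 blank spots (box with whiskers to the extremes) and each Negative Control (NC) spot (open circles), on the control array (left) and the luteolin array (right). On the control array all 9 miRNAs lie below the highest Negative Control spot at 93.7 units, and on the luteolin array miR-8080, miR-185-5p and miR-361-3p lie above the highest such spot of that array, at 69.4 units.

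MiR-8080 (MIMAT0031007) gave 86.4 units on the control array. That was above 318 of the 320 blank spots and above all 8 spots each of Negative Control 2 and Negative Control 3, but above only 3 of the 16 spots of Negative Control 1. On the luteolin array it gave 81.0 units, above all 320 blanks and all 32 Negative Control spots. Its signal stood 5.39 units above the blank mean, or 3.63 blank SDs, without luteolin and 14.8 units, or 25.0 blank SDs, with it. The raw signal was lower on the luteolin array, as was the blank mean, and the blank-subtracted signal was higher there. With 1 array each, the groups have no spread to set this difference against.

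On the authors' deposited scale, which subtracts the blanks and scales each array, miR-8080 was listed at 16.4 without luteolin and 68.5 with it. The ratio was 4.19, or 2.07 ± 0.42 on the log2 scale. The error combines the blank SD with the spread of repeated bright control spots and covers spot error within an array only. With the SD of Negative Control 1 in place of the blank SD it was 0.73. On this scale the mean of Negative Control 1 was 21.8 on the control array, above miR-8080, and 9.39 on the luteolin array, so the size of the ratio rests on a control signal that lay within that probe's range. Set against the brightest Negative Control spot without luteolin, the luteolin level of miR-8080 was at least 1.77-fold higher. The bound takes the authors' scaling as given and leaves out the error of the luteolin spot.

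Raw signals within each array need no scaling between the arrays. Probes differ in binding, so an order of probes describes signal and not abundance. A control signal within the range of Negative Control 1 was found for 630 miRNAs, of which 245 exceeded every Negative Control spot on the luteolin array. Of the 630, 9 were at least as high as miR-8080 on the luteolin array, itself included. By raw signal, miR-8080 stood at place 559 of the 2565 probes on the control array and at place 218 on the luteolin array. Among the 701 miRNAs listed on both arrays its log2 ratio on the authors' scale was the sixth highest in rank (6 of 701), where 13.4% were 2-fold or more higher after luteolin and 5.14% 2-fold or more lower. That balance belongs to the authors' scale: 94 were higher and 36 lower there, 22 and 165 with blank subtraction alone, and 246 and 1 with scaling by bright control probes. The rank was 54 and 35 with normexp offsets of 50 and 16, and 14 of 637 with the Negative Control mean as background. Of these 701, 391 had a control signal that did not exceed the Negative Control spots.

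By the distance between listed log2 levels on both arrays, the miRNAs nearest to miR-8080 were miR-335-5p, miR-34a-5p, miR-148b-3p, miR-9-3p and miR-10a-5p. MiR-335-5p, an intronic miRNA of the imprinted MEST gene, was listed at 17.5 and 78.0, a distance of 0.21. MiR-148b-3p was listed at 13.8 and 51.0 (distance 0.49), miR-9-3p at 19.4 and 46.8 (0.60) and miR-10a-5p at 20.6 and 47.6 (0.62). All 5 exceeded the luteolin array's Negative Control spots. Likeness here is over 2 arrays and compares listed values of different probes. The longest run of bases that miR-8080 shared with another array miRNA of known sequence was 10, with miR-7856-5p, whose raw signals were 85.3 units without luteolin and 67.3 with it. The luteolin signal of that probe lay at the detection limit, and cross-binding was not tested.

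**Figure D2:**
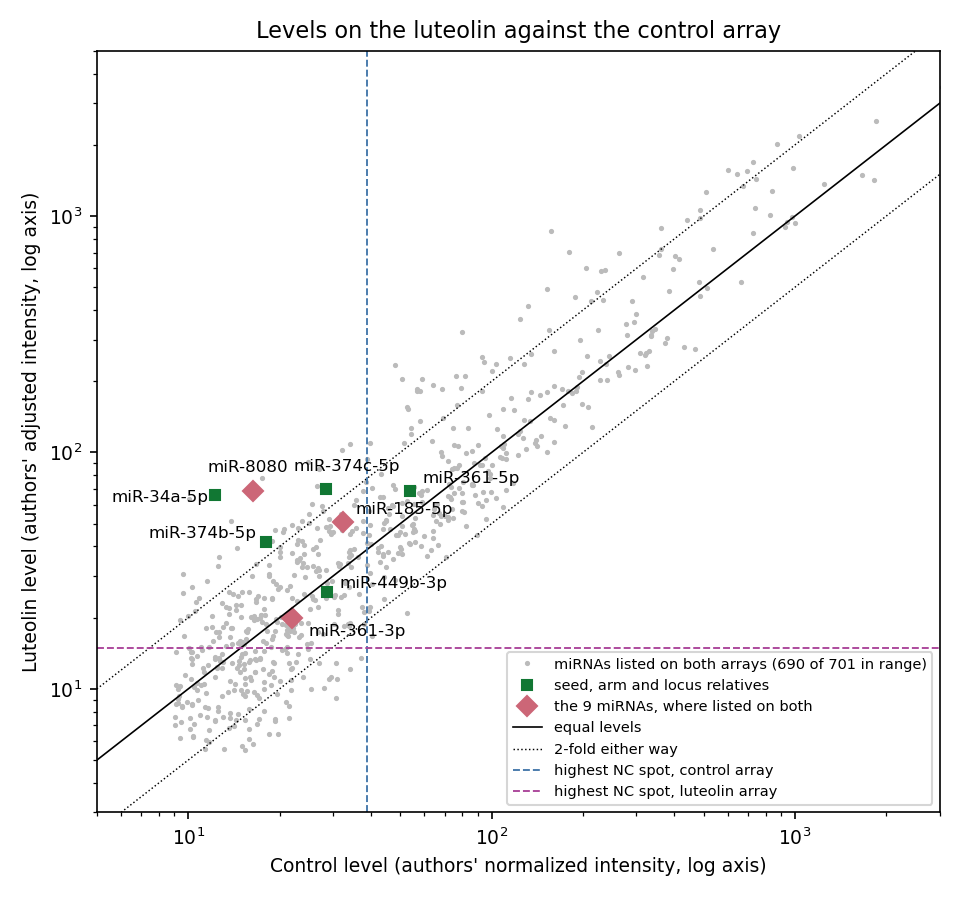
Level on the luteolin array (vertical) against level on the control array (horizontal), both in the authors' normalized intensity on log axes, for 690 of the 701 miRNAs listed on both arrays (grey, the 11 brightest lie outside the range), with the members of the 9 listed on both arrays (red diamonds) and their relatives by seed, hairpin or locus (green squares). MiR-8080 and miR-34a-5p stand beside each other in the upper left, left of the brightest Negative Control (NC) spot without luteolin (blue dashes, 38.7) and above the one with luteolin (purple dashes, 14.9).

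MiR-185-5p (MIMAT0000455), a growth-restraining miRNA that also acts on lipid metabolism genes, lay just under the control limit. It gave 91.6 units without luteolin, above 31 of the 32 Negative Control spots, and 77.1 units on the luteolin array, above all 32. The blank-subtracted signal was 10.6 units without luteolin and 10.9 with it, nearly equal before any scaling between the arrays. On the authors' scale the levels were 32.2 and 50.7, a log2 ratio of 0.65 ± 0.26, or 0.40 as the error with the Negative Control 1 SD. The bound was at least 1.31-fold on this scale, but the same quotient was 0.858 without scaling between the arrays, where no bound can be given. A bound above 1 on the authors' scale was reached by 2 of the 9 miRNAs, miR-8080 and miR-185-5p, and by 2.18% of all probes.

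MiR-4306, whose 17 bases share a run of 16 with miR-185-5p, was not detected on the control array at 83.4 units and exceeded all 32 Negative Control spots on the luteolin array at 70.8 units. How much of that signal came from miR-185-5p binding to the miR-4306 probe was not tested. The other arm, miR-185-3p, gave 83.6 and 67.4 units, on neither array above all Negative Control spots.

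MiR-361-3p (MIMAT0004682) showed no difference beyond spot error. Its raw signal was 88.2 units on the control array, above 25 of the 32 Negative Control spots, and 70.5 on the luteolin array, above all 32. The listed levels were 22.0 and 20.0, a log2 ratio of -0.13 ± 0.38. The ratio was -0.74 with blank subtraction alone and 0.57 with scaling by bright control probes, scalings that move all miRNAs alike, and its difference from the median of the 701 was -0.13 on each. The opposite arm of the hairpin, miR-361-5p, was above all 32 Negative Control spots of each array, with 98.7 and 81.0 units, and was listed at 53.6 and 68.6, a log2 ratio of 0.36 ± 0.19. Neither arm reached a 2-fold difference on the authors' scale. By the same distance, the nearest patterns were miR-188-5p (0.069) and miR-6777-3p (0.089) for miR-361-3p, and miR-151b (0.046) and miR-505-5p (0.10) for miR-185-5p.

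MiR-421 (MIMAT0003339) was not detected on the control array, with 83.5 units, and was listed at 10.2 on the luteolin array, where its 68.4 units lay above 24 of the 32 Negative Control spots. No fold is given, since neither signal exceeded all of those spots. Of the 10 other arms within the span of FTX or beside miR-449, 3 exceeded the Negative Control spots after luteolin and 0 without it. This pattern was found for 11.0% of all probes. It compares unlike limits, 38.7 without luteolin and 14.9 with it on the authors' scale. All 3 were miR-374 arms within the span of FTX, whose strand was not compared with theirs. MiR-374c-5p gave 90.4 and 81.2 units, listed at 28.5 and 69.8, and was at least 1.80-fold higher by the bound on the authors' scale. MiR-374b-5p, whose hairpin overlaps that of miR-374c, gave 86.9 and 75.2 units, listed at 17.97 and 41.8, with a quotient of 1.08 on the authors' scale. Without scaling between the arrays the same quotient was 1.18 for miR-374c-5p and 0.708 for miR-374b-5p, so the latter has no bound there. MiR-374a-5p was not detected on the control array and was listed at 38.6 on the luteolin array, just under the control limit of 38.7. MiR-374b-5p and miR-374c-5p share a run of 20 bases, and how far their probes bind both was not tested.

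MiR-449a (MIMAT0001541) and miR-449b-5p (MIMAT0003327), of a family known for ciliated epithelia and cell cycle arrest, were at background on the luteolin array. MiR-449a gave 84.3 units on the control array, listed at 10.1 but above only 1 of the 16 spots of Negative Control 1, and 65.9 on the luteolin array, below the blank mean. MiR-449b-5p gave 80.4 and 65.4 units, below the blank mean on both arrays. No fold can be given for either. Their neighbours miR-449c-5p and miR-449c-3p were not detected on either array. The other arm of the miR-449b hairpin, miR-449b-3p, was detected on both arrays at 90.4 and 71.7 units, with listed levels of 28.7 and 25.7 and a log2 ratio of -0.16 ± 0.31.

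Their seed relative miR-34a-5p, a p53-induced miRNA, was listed on both arrays. It gave 85.0 units on the control array, above 18 of the 32 Negative Control spots, and 80.4 on the luteolin array, above all 32. The listed levels were 12.3 and 65.8, a log2 ratio of 2.42 ± 0.55, and the bound was at least 1.70-fold on the authors' scale and 1.11 without scaling between the arrays. Of the probes for miR-449a, miR-449b-5p and miR-34a-5p, that for miR-34a-5p was the only one to exceed every Negative Control spot, and did so after luteolin.

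MiR-135b-5p (MIMAT0000758), miR-634 (MIMAT0003304) and miR-488-5p (MIMAT0002804) lay within the range of the Negative Control spots on both arrays. MiR-135b-5p gave 82.6 and 67.5 units and was listed on the luteolin array alone, at 6.06, with 16 of the 32 Negative Control spots above it. MiR-634 gave 81.8 and 66.6 units, and miR-488-5p gave 82.5 and 66.3 units, with 0 of these 4 values above the detection limit. The paralog miR-135a-5p, at 82.3 and 66.1 units, and the arms miR-135b-3p and miR-488-3p were not detected on either array either. A level below these limits may still be present: for these miRNAs no change was detectable at this signal over background.

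Of the 9 miRNAs, 3 were detected on neither array, where 57.3% of all probes were. Over the 3 listed on both arrays the median log2 ratio on the authors' scale was 0.65, with 1 of them 2-fold or more higher and 0 lower. Over all 701 the median is 0, because the authors' last step sets it there. Only miRNAs bright enough on both arrays enter these medians. With normexp and an offset of 50, which gives every probe a value, the median log2 ratio over the 9 was 0.00068, with 5 above 0 and 4 below. Over all 2565 probes the median was -0.00082, with 1249 above 0 and 1301 below. This scale pulls the ratios of dim miRNAs towards 0, and on it 1 of the 701 was 2-fold or more higher and 0 lower. Medians near 0 therefore cannot tell the 9 from other dim probes.

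**Figure D3:**
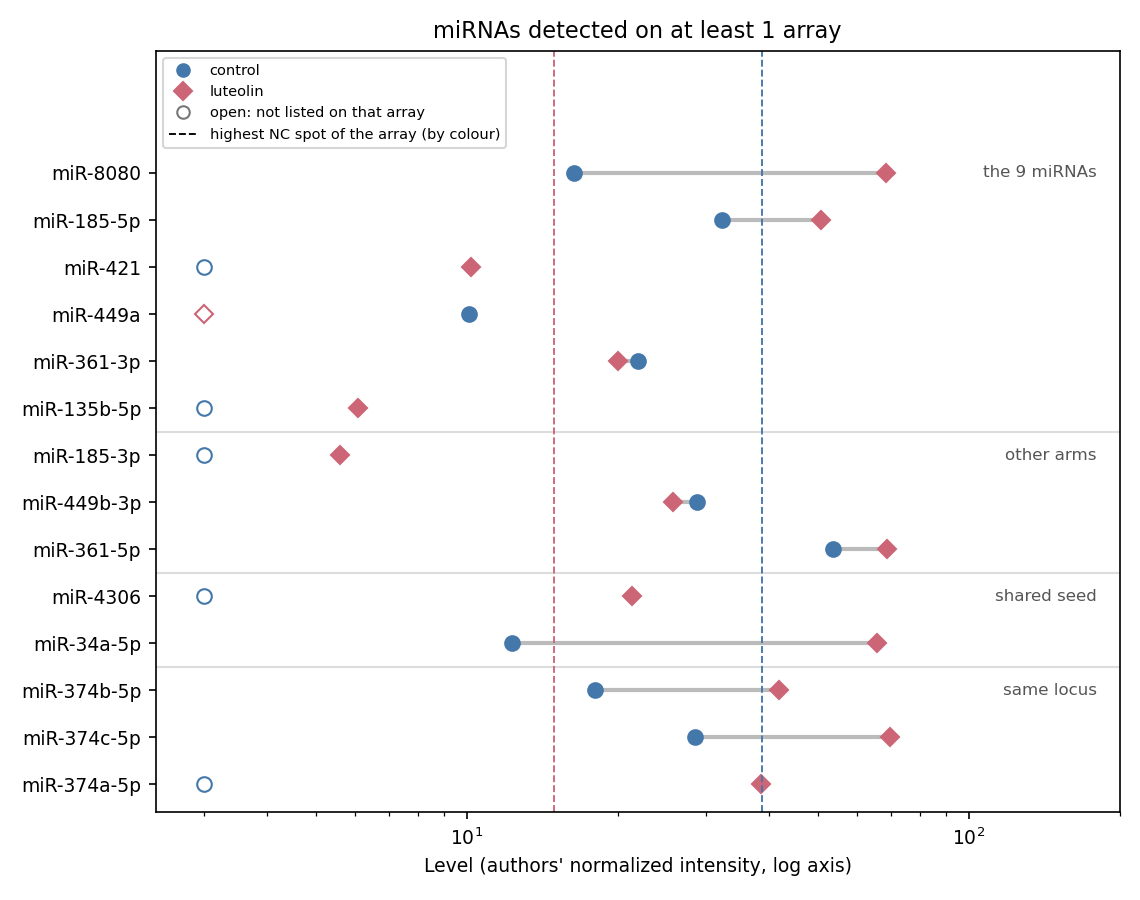
Level on the control array (blue circles) and the luteolin array (red diamonds), in the authors' normalized intensity on a log axis, of the 9 miRNAs and their relatives detected on at least 1 array; open symbols at the left edge mark the array on which a miRNA was not listed, and dashed lines mark the highest Negative Control (NC) spot of each array. MiR-8080, miR-185-5p, miR-34a-5p, miR-374b-5p and miR-374c-5p cross from left of the blue line at 38.7 to right of it, while miR-361-3p and miR-449b-3p differ little.

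The direction for miR-8080 was the same under every scaling tried, and its size was not. The log2 ratio was 1.46 with blank subtraction alone, 2.38 with global normalization alone, 2.77 when the arrays were scaled by 5 bright control probes, and 3.34 when the mean of the Negative Control spots was taken as background. It was 0.30 with normexp background correction and an offset of 50, where the level of every dim miRNA is pulled towards the offset, and 0.64 with an offset of 16. The shift of all miRNAs differs between these scales. The median of the 701 was -0.61 with blank subtraction alone, 0.32 with global normalization alone and 0.71 with the bright control probes, and since these scales differ by a factor alone, miR-8080 stood 2.07 above the median on each. It stood 0.32 and 0.68 above the median with normexp offsets of 50 and 16, and 3.34 above it with the Negative Control background. The bound for miR-8080 ran from 1.16 without scaling between arrays to 2.89 with the bright control probes. On the authors' scale Spike Control 1 averaged 27985 without luteolin and 16223 with it. Which scale represents equal amounts of RNA was not tested.

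**Figure D4:**
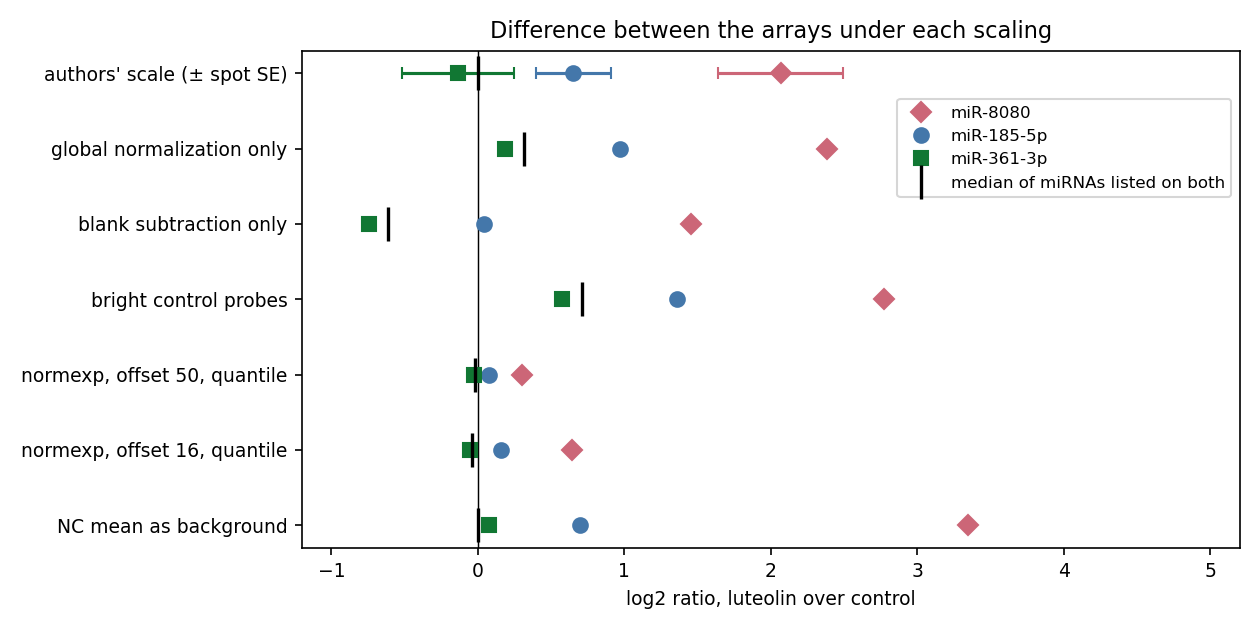
Log2 ratio of luteolin over control (horizontal) for miR-8080, miR-185-5p and miR-361-3p under 7 scalings (rows), with the standard error between spots as bars on the authors' scale and the median of the miRNAs listed on both arrays as a black tick. MiR-8080 lies right of the tick in every row, from 0.30 to 3.34, and miR-361-3p lies near it.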

How the data were processed

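Per the labels, total RNA of 22Rv1 cells was labelled with Cy5 and hybridised to Toray 3D-Gene miRNA arrays, 1 per condition, so the number of arrays limits the precision. The deposited files hold intensity on a linear scale, and per the file headers the authors made it in steps: raw data, background subtraction, global normalization and, for the luteolin array, an adjusted column. Rebuilt from the values, the background is the trimmed blank mean, the factors are 3.03 and 5.77 (median of listed miRNAs at 25) and the adjustment is 0.803, the median control over luteolin ratio of the 701 miRNAs listed on both arrays. The deposited value table holds the same values. This authors' scale is the main scale. The members' own levels were compared with Negative Control spots within each array, and a bound divides a luteolin level by the brightest Negative Control spot found without luteolin.

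Alternatives used other limits and scalings, among them normexp in limma 3.58.1 (R 4.3.3) followed by quantile normalization. Other work used Python 3.11.15, numpy 2.4.6, pandas 2.3.3 and matplotlib 3.10.9. The blank subtraction, scaling and normexp steps were tested on simulated arrays. Simulated Negative Control spots were centred on the blank mean, and the Negative Control comparisons and the bound were not tested. Spot errors combine the blank SD with the pooled coefficient of variation of 5 repeated bright control probes, 7.34% without luteolin and 6.23% with it. Members, lists and scales were chosen with earlier results of these data known, and the lists come from general knowledge. Named miRNAs are the members, their other arms, seed and locus relatives, cell type markers and the nearest patterns by distance. Those patterns are 5 for miR-8080 and 2 each for miR-185-5p and miR-361-3p. MiR-7856-5p and miR-34c-5p were named after their values were seen. A further list of miRNAs is not reported here.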

Additional observations from a re-analysis of the deposited data

How the results depend on the processing

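No paired analysis was possible because each condition has 1 array, and for the same reason no replicate could be left out. With the mean plus 2 SD of all Negative Control spots as the limit, 0 members were detected without luteolin and 3 with it, in place of 4 and 5; the blank mean plus 3 SD and the untrimmed blanks each gave 3 and 4. Against every Negative Control spot, 0 members were above background on the control array. That number was 3 against Negative Control 2 and Negative Control 3 alone. It was 1 against the 95th percentile of all Negative Control spots and 2 against the highest blank spot. On the luteolin array it was 3 or 4 under the same limits. Shares of all probes under these other limits are not given here. At the main limits they were also higher with luteolin: 31.6% and 38.4% were detected without and with it, and 12.1% and 23.1% exceeded every Negative Control spot. The log2 ratio of miR-8080, 2.07, was 1.46 with blank subtraction alone, 2.77 with bright control probes, 0.30 and 0.64 with normexp offsets of 50 and 16, and 3.34 with Negative Control background, and kept its sign under the 6 alternatives that could change it (the deposited value table holds the main values) The first 2 differ from the authors' scale by a scaling factor alone, and the others change the background treatment of a control signal of 5.39 units, normexp together with quantile normalization, whose parts were not separated. MiR-185-5p ranged from 0.04 to 1.36 and miR-361-3p from -0.74 to 0.57. Bounds under other scalings, chosen after seeing the data, ran from 1.16 to 2.89 for miR-8080 and from 0.858 to 2.14 for miR-185-5p; those of relatives stand in the report. Signals within a few units of the blanks limit every other member: their ratios are undefined, and absence was not shown.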
